A study of Mus musculus with 12 samples.

Results

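The response of wild-type mouse macrophages to the yeast Candida albicans was measured by RNA sequencing of polyadenylated RNA in 6 libraries, 3 from cells given PBS and 3 from cells given C. albicans. These are 6 of the 12 libraries of a study of Piezo1, a stretch-gated cation channel, that asks whether it takes part in how macrophages sense the hyphae of this fungus. The cells of both groups carried the wild-type label and were bone marrow-derived macrophages, which are grown from marrow precursors in culture. They were kept in M-CSF, the growth factor that drives macrophage differentiation, at 50 ng/ml for 8 further days, and the submitters describe them as positive for CD11b and F4/80 by flow cytometry. The labels give neither the amount of fungus nor the length of exposure, nor the strain, age or sex of the mice. They also do not say whether the 3 libraries of a group came from separate animals or cultures, so the p-values measure the spread between these libraries only, which may be technical. The genes described are those at a level of 1 or more TPM (reads per unit of gene length, scaled to the same total in each library) in at least 3 of the 6 libraries, which holds for 11056 of the 25230 genes in the deposited table.

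Macrophages meet C. albicans through C-type lectin receptors, which bind sugars of the fungal cell wall, and through Toll-like receptors. Lectin receptors such as dectin-1 (Clec7a), dectin-2 (Clec4n) and Mincle (Clec4e) signal through the kinase Syk to the Card9, Bcl10 and Malt1 complex, and this route meets the Toll-like receptor route at NF-kB and the MAP kinases. NF-kB dimers are held in the cytoplasm by IkB proteins until these are degraded, and then switch on cytokines, neutrophil-attracting chemokines and their own inhibitors, so that the response carries its own brakes. Hyphae are too large to be engulfed easily, and recruited neutrophils are a main defence against them.

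Between 17064443 and 22669260 reads in genes were recovered for each library, and 1 read was worth 0.032 to 0.043 TPM for a gene of typical length. The first C. albicans library stood apart from its 2 replicates. Across genes its read counts differed from those of replicates 2 and 3 by 16.2 and 15.3 times the sampling noise (chi-square per degree of freedom), against 1.49 between replicates 2 and 3 and 1.72 to 4.60 among the PBS libraries. Results that rest on this library are therefore given with and without it. The 10 macrophage markers listed all passed the level filter, at a summed 45581 to 45898 TPM with PBS and 37840 to 38314 TPM with C. albicans. Itgam, which encodes CD11b, was at 134 to 137 TPM with PBS and 130 to 137 TPM with C. albicans. Adgre1, which encodes F4/80, was at 1140 to 1207 and 939 to 1100 TPM. Markers of other cell types were low: 2 of 12 neutrophil markers were tested, with a summed 9.40 to 9.45 TPM with PBS and 12.5 to 14.6 TPM with C. albicans, while Ly6g, S100a9, Elane, Prtn3, Retnlg and Cxcr2 were listed at 0. No dendritic cell, erythroid or fibroblast marker passed the filter. Piezo1 itself was at 130, 134 and 140 TPM with PBS and 147, 132 and 132 TPM with C. albicans, and the groups overlapped (log2 difference 0.02 ± 0.05, limma adjusted p = 0.768).

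Differences below are C. albicans minus PBS on the log2(TPM + 1) scale, a scale that understates the change of low genes, with the standard error after ± and n = 3 libraries in each group. The adjusted p is from limma over all 11056 genes, and rose and fell are used of genes under 0.05. A gene under 1 TPM in every library of a group passed the level filter only through the other group, so the filter fixed its direction. In these bulk samples fewer cells of a type and less RNA per cell cannot be told apart.

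The macrophages answered with a small set of genes that rose steeply and with broad sets that rose or fell slightly. On the TPM scale more genes fell than rose. Of the 11056 genes, 4069 (36.8%) passed the test: 1502 (13.6%) rose and 2567 (23.2%) fell. The counts of every gene list below are to be set beside these shares. At least a 2-fold change was seen in 225 rises (2.04%) but in only 50 falls (0.452%). The groups did not overlap for 2054 genes that were higher with C. albicans (18.6%) and for 3647 that were lower (33%). TPM values sum to the same total in each library, so each value is relative to all others. The median difference over all genes was -0.07, and it was 0.00 when the libraries were scaled by median-ratio factors instead. With that scaling 2051 genes rose (18.6%) and 1707 fell (15.4%), so that rises made up 54.6% of the calls in place of 36.9%. Without the first C. albicans library 1744 genes rose (15.8%) and 3272 fell (29.6%), and these held 1441 and 2463 of the genes named by all 6 libraries, none with the opposite sign. Falls numbered 1688, 1599 and 1655 without PBS library 2, C. albicans library 2 and C. albicans library 3.

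**Figure D1:**
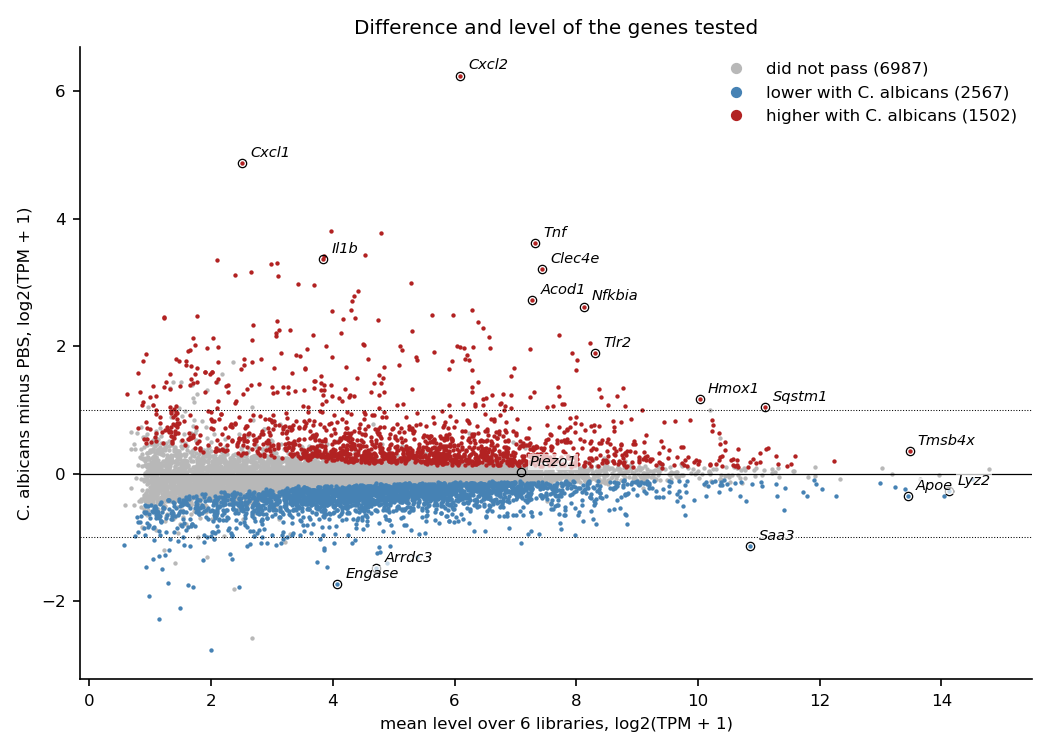
Log2 difference between C. albicans and PBS (vertical axis, log2(TPM + 1) scale) against mean level (horizontal axis) for the 11056 genes tested, with genes that rose and fell at an adjusted p under 0.05 in colour. The rises of at least 2-fold (225 genes) reach 6.25, whereas the 50 falls of that size reach -2.77, for the small RNA gene Mir339, and -1.78 among the named genes.

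On the log2(TPM + 1) scale the largest rise was that of Cxcl2, a chemokine that attracts neutrophils. It was at 6.45, 6.27 and 7.86 TPM with PBS and at 547, 619 and 617 TPM with C. albicans, a mean of 6.86 ± 0.87 against 594 ± 40.9 (SD, n = 3), or 86.6-fold (6.25 ± 0.08, limma adjusted p = 5.27e-09). Cxcl1, its close relative with the same receptor, was at 0.139, 0 and 0 TPM with PBS and at 33.2, 28.0 and 28.2 TPM with C. albicans (4.88 ± 0.11, adjusted p = 8.09e-08). That is 1 read in the PBS group against 733 in the other, a depth-scaled ratio of 659 with an exact 95% interval of 118 to 26063 that covers counting error only. Both chemokines passed from near silence, or a low level, to a clear signal in every library. Cxcl3, the third of this kind, rose from 0.389, 0.400 and 0.236 TPM to 6.36, 15.3 and 20.1 TPM (3.35 ± 0.33, adjusted p = 2.31e-04), lowest in the first C. albicans library.

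Behind the chemokines came feedback inhibitors and cytokines. Socs3, an inhibitor of cytokine receptor signalling, was at 2.91, 3.14 and 3.52 TPM with PBS and at 58.1, 54.9 and 59 TPM with C. albicans (3.80 ± 0.07, adjusted p = 4.57e-08). Nfkbiz, which encodes the nuclear IkB protein needed for some secondary cytokine genes, was at 6.34, 6.94 and 6.19 TPM and then at 124, 92.5 and 92.3 TPM (3.78 ± 0.11, adjusted p = 2.70e-07). Tnf, the cytokine tumour necrosis factor, was at 45.2, 42.6 and 45.6 TPM and then at 594, 538 and 546 TPM (3.62 ± 0.05, adjusted p = 5.27e-09). In none of these did the groups come near each other, and the choice of genes required that they not overlap. Tnfsf9, which encodes the ligand of the co-stimulatory receptor 4-1BB, rose from 3.09 to 3.75 TPM to 38.9 to 59 TPM (3.42 ± 0.14, adjusted p = 1.56e-06). Gem, a small GTPase that restrains calcium channels, rose from 1.58 to 1.87 TPM to 24.2 to 27.3 TPM (3.30 ± 0.08, adjusted p = 9.61e-08). Cd69, an early activation marker of leukocytes, rose from 3.55 to 3.74 TPM to 32.9 to 36.6 TPM (2.96 ± 0.07, adjusted p = 8.18e-08). Nfkbie, an IkB protein, and Cdc42ep2, an effector of the GTPase Cdc42, rose by 2.99 ± 0.12 and 2.98 ± 0.18, and both were highest in the first C. albicans library (133 against 98.9 and 96.2 TPM for Nfkbie, 39.5 against 25.9 and 24.4 TPM for Cdc42ep2).

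Other genes among the 15 largest rises were lowest in that library. Gpr84, which senses medium-chain fatty acids, was at 5.69 to 6.38 TPM with PBS and at 41.1, 102 and 98.8 TPM with C. albicans (3.44 ± 0.30, adjusted p = 1.11e-04). Il1b, which encodes interleukin-1 beta, was at 4.79, 2.42 and 3.47 TPM and then at 33.4, 51.2 and 53.3 TPM (3.37 ± 0.22, adjusted p = 2.16e-05). Clec4e was at 59.8, 56.1 and 52.9 TPM and then at 395, 610 and 611 TPM, 9.57-fold (3.21 ± 0.15, adjusted p = 3.48e-06). Each group remained apart from the other despite the low first library, which the choice of genes required. Ptgs2, the inducible cyclooxygenase of prostaglandin synthesis, rose from 0.887 to 1.34 TPM to 14.6, 19.9 and 19.4 TPM (3.16 ± 0.14, adjusted p = 1.94e-06). Over the 225 genes that rose at least 2-fold, the median difference from PBS was 1.52, 1.57 and 1.63 in C. albicans libraries 1, 2 and 3, and the first library was the lowest of the 3 in 122 genes and the highest in 88.

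**Figure D2:**
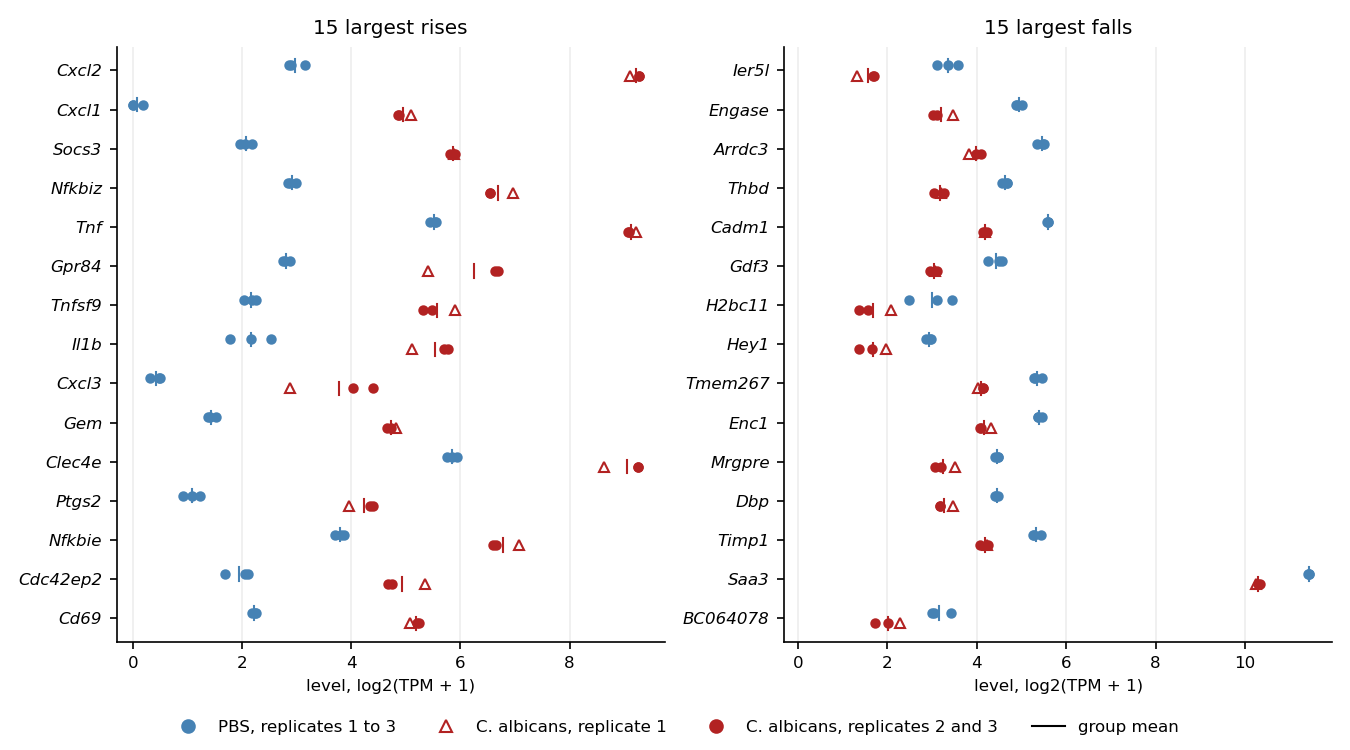
Level in each of the 6 libraries (horizontal axis, log2(TPM + 1)) for the 15 named genes that rose most (left) and the 15 that fell most (right), with PBS in blue, C. albicans in red, replicate 1 of C. albicans as an open triangle and group means as vertical lines. The groups do not overlap for any of these 30 genes, which the choice of genes required, and Cxcl2 spans the widest range, from 6.27 to 619 TPM.

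The start sites of the genes that changed most were read for motifs. The 250 bases before a listed RefSeq start (assembly GRCm38.p6) of the 5 largest rises and the 2 largest falls that the table holds, among genes at 5 TPM or more, are given below, 5′ to 3′ on the gene's strand, with capitals marking an NF-kB motif or a TATA box (TATAAA). They lie at chr5:90903649-90903898, plus strand (Cxcl2), chr5:90890995-90891244, plus (Cxcl1), chr11:117969367-117969616, minus (Socs3), chr17:35202008-35202257, minus (Tnf), chr15:103310439-103310688, minus (Gpr84), chr2:30474200-30474449, minus (Ier5l) and chr11:118476582-118476831, plus (Engase).
Cxcl2: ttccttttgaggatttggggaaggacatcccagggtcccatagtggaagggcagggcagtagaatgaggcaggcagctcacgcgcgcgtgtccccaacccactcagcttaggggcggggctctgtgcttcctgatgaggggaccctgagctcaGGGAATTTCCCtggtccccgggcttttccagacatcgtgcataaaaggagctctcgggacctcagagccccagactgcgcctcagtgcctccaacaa
Cxcl1: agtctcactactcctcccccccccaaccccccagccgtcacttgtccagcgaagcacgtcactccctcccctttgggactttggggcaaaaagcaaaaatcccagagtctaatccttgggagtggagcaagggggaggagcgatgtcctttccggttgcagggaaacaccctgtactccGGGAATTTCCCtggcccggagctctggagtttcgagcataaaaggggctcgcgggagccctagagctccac
Socs3: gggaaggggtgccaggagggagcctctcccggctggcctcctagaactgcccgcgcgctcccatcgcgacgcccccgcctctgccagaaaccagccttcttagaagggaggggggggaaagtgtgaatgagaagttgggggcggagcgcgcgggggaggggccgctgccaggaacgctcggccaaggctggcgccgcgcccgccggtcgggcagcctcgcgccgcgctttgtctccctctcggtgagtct
Tnf: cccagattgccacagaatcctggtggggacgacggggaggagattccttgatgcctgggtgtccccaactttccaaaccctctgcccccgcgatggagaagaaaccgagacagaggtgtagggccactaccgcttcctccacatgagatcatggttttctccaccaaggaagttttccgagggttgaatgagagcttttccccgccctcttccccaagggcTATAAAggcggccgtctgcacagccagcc
Gpr84: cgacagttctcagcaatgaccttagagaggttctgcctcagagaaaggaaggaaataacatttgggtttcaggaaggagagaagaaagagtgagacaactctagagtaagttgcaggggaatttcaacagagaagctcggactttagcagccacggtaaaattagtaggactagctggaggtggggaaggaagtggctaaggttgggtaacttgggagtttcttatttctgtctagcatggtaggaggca
Ier5l: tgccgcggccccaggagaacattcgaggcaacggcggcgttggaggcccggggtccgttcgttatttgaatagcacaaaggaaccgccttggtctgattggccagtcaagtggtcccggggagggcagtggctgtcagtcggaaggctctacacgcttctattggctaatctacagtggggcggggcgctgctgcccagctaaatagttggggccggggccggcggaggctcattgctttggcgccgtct
Engase: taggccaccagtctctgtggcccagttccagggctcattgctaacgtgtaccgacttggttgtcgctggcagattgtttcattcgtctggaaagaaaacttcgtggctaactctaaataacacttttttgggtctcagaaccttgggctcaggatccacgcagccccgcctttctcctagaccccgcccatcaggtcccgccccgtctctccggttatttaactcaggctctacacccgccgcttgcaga

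Cxcl2 and Cxcl1 hold the same run of 2 overlapping NF-kB motifs, 97 to 87 and 71 to 61 bases before the start. Cxcl3 holds it 73 to 63 bases before its start (chr5:90786019-90786047, plus, with 9 bases on each side). The matches of this group, of the IkB gene Nfkbia and of Rel, an NF-kB subunit gene, are shown with their flanks, capitals marking the match, to give the letters behind the counts that follow.
Cxcl3: agctgcgggGGGAATTTCCCcagcccggg
Cxcl10: gaggggagaGGGAAATTCCaagttcatg
Cxcl10: ggtttacagGGGACTTCCCtcgggttgc
Nfkbia: gactggcttGGAAATTCCCcgcgcctga
Rel: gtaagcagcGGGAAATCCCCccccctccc

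Nfkbia has its match 29 to 20 bases before the start (chr12:55492658-55492685, minus), Rel 92 to 82 (chr11:23771042-23771070, minus) and Cxcl10 at 159 to 150 and 103 to 94 (chr5:92349030-92349057 and chr5:92348974-92349001, minus). The windows of Socs3, Gpr84, Ier5l and Engase hold neither an NF-kB motif nor TATAAA, and that of Tnf holds TATAAA 29 to 24 bases before the start. An absent match says only that these letters are not in the window. On the gene positions used for neighbours below, the Socs3 window lies inside the gene (chr11:117966079-117970336). That of Gpr84 lies mostly inside its gene and that of Engase partly, so sequence before another start of these genes was not read.

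Across all promoters of genes that rose at least 2-fold, 157 of 225 genes matched the table, with 200 promoters. The NF-kB motif, searched on both strands, was in 35 of the 200 (17.5%), against 506 of 11187 promoters of all tested genes (4.52%) and 3.90% of the whole table. It was in 7.54% of promoters of all genes that rose, in 4.16% of those of genes that fell and in 1 of 31 promoters of genes that fell at least 2-fold, where 26 of 50 genes matched. Its holders include Tnfaip3, Nlrp3, Tlr2, Sod2, Sqstm1, Ier3 and Maff, each described below. The AP-1 motif TGANTCA was in 9.5% of the 200 promoters and in 4.51% of those of all tested genes, against 6.749% of the whole table. TATAAA was in 14% and 6.33%, but it was in 12.37% of the whole table, nearly as often as in the 200. The CArG box bound by serum response factor was in 3.5% and 1.04%. The antioxidant element TGACNNNGC was no more frequent, at 11% and 11.9%, but it was in 9 of 39 promoters (23.1%) of the NRF2 and glutathione list and in 10 of 36 (27.8%) of the immediate early and AP-1 list. TGACGTCA, the cyclic AMP element, was in 5% and 2.68%, and the E-box of lysosomal genes in 1 promoter of the 200. Some NF-kB matches overlap each other, and a match is a run of letters, not a measured binding site.

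**Figure D3:**
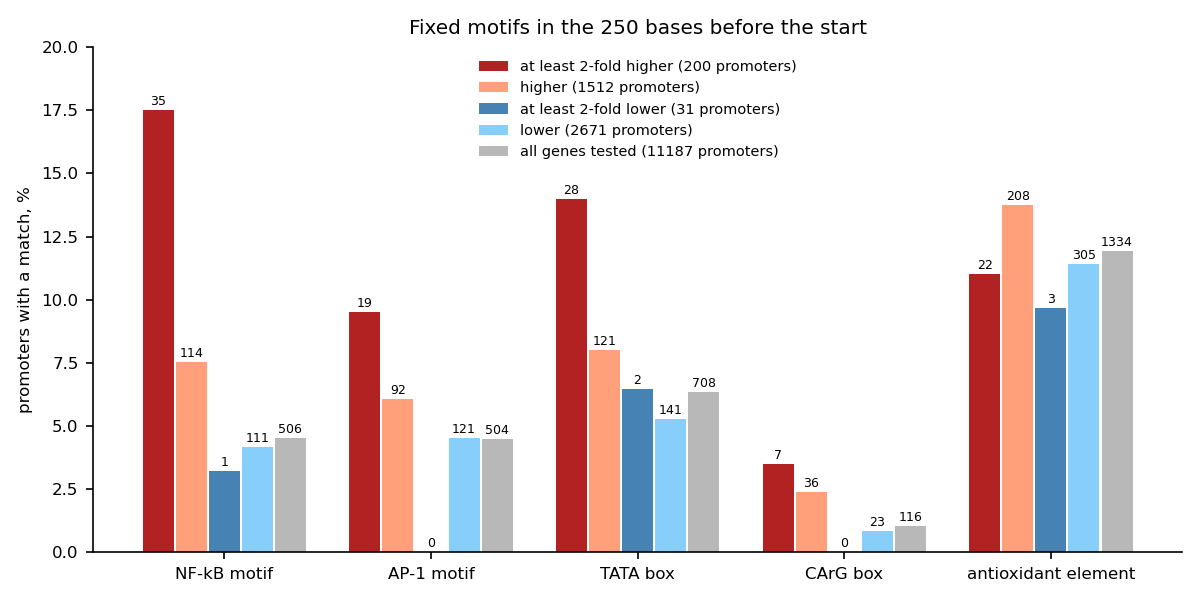
Percent of 250-base promoters that hold each motif on either strand (vertical bars, from 0, with the number of promoters above each), for 5 of the motifs in genes that rose at least 2-fold, all genes that rose, all tested genes, genes that fell and genes that fell at least 2-fold. The NF-kB motif is in 17.5% of promoters of genes that rose at least 2-fold and in 4.52% of those of all tested genes.

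Genes with large changes in either direction lay close together more often than other genes. Of the 225 genes that rose at least 2-fold, 35 (15.6%) have another such gene within 100 kb, against 597 of the 10827 other genes tested (5.51%). Of the 50 genes that fell at least 2-fold, 6 (12%) have another such gene that near, against 180 of 11002 others (1.64%). Neighbours that rose, on the annotation used here (RefSeq, GRCm38), include Cxcl1 and Cxcl2 (chr5:90891245-90905938), Cxcl10 and Cxcl11 (chr5:92346638-92363296), Ccl2 and Ccl7 (chr11:82035577-82047525), Ccl9, Ccl3 and Ccl4 (chr11:83572917-83664683) and Il1a and Il1b (chr2:129299609-129371164). These pairs and triplets belong to known gene families made by tandem duplication. Other neighbours that rose are no relatives by family, such as Nfkb2 and Psd, Vasp and Fosb, and Txnrd1 and Eid3. Of these Eid3 lies inside Txnrd1 and Psd overlaps Nfkb2, as Ccl4 overlaps Ccl3. Reads may be shared between such overlapping genes, so they need not be separate rises, which was not tested. In the 196 of these 225 genes with a protein-coding transcript, the median exon number was 6, against 9 over all tested genes, and 30.1% had at most 3 exons against 12.3%. Of the 50 genes that fell at least 2-fold only 36 (72%) have such a transcript. In these the median was 4.5 exons and 47.2% had at most 3, so few exons were not particular to the rises. Genes that rose had a median GC content of 46.9% in their transcripts and genes that fell 54.0%. The difference and GC content had a Spearman correlation of -0.377 across 10421 genes (-0.358 without the first C. albicans library), which are not independent replicates and share libraries and base composition.

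Most of the tested genes for secreted signals rose. Of the 19 chemokine genes tested 12 rose and 4 fell, with a median difference of 1.00 against -0.07 over all genes, and of 20 cytokine and TNF-family genes 11 rose and 3 fell (median 0.70). Ccl3, a chemokine for monocytes, was at 146, 154 and 138 TPM with PBS and at 589, 606 and 621 TPM with C. albicans (2.05 ± 0.05, adjusted p = 8.18e-08). Ccl4, its neighbour, was at 132, 137 and 144 TPM and then at 462, 472 and 489 TPM (1.78 ± 0.04, adjusted p = 9.30e-08). Both were already expressed at rest, and their C. albicans libraries agreed closely. Ccl7, another monocyte attractant, rose from 38.0, 41.3 and 36.3 TPM to 184, 137 and 148 TPM (1.98 ± 0.10). Ccl5 went the other way, from 4019 to 4037 TPM to 3103 to 3215 TPM (-0.36 ± 0.03, adjusted p = 7.87e-05), yet it stayed far above the other chemokines in TPM.

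The anti-inflammatory cytokine gene Il10 was at 3.33, 3.43 and 3.67 TPM with PBS and at 22.9, 17.9 and 20.9 TPM with C. albicans (2.26 ± 0.10, adjusted p = 1.82e-06). Osm, a cytokine of the interleukin-6 family, rose from 19.2 to 19.9 TPM to 35.7 to 38.2 TPM (0.89 ± 0.05). Several cytokines were too low for the filter: 11 of the 31 listed did not pass it. Il6 had no read in the PBS libraries and 3, 24 and 7 reads in the C. albicans libraries, which is at least 10.2-fold higher against a floor of 3 reads over the PBS group. Il12b, a subunit of interleukins 12 and 23, had 1, 4 and 7 reads with PBS and 6, 97 and 63 with C. albicans, so its first C. albicans library lay within the PBS range. Lif and Csf3 had at most 4 reads in a PBS library and 4 to 22 in a C. albicans library.

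Growth factors rose in 9 of 18 genes and fell in 4. Gdf15, a stress-induced member of the TGF-beta family, was at 45.2, 47.0 and 50.3 TPM with PBS and at 201, 181 and 185 TPM with C. albicans (1.97 ± 0.06, adjusted p = 2.70e-07). Pdgfb, a platelet-derived growth factor chain, rose from 21.2 to 28.3 TPM to 91.0 to 108 TPM (1.92 ± 0.11), Npy, a neuropeptide, from 518 to 536 TPM to 839 to 974 TPM (0.81 ± 0.06), and Igf1 from 67.3 to 75.1 TPM to 104 to 127 TPM (0.70 ± 0.08). Gdf3 fell from 21.5, 22.9 and 18.1 TPM to 7.45, 7.60 and 6.79 TPM (-1.40 ± 0.09, adjusted p = 2.76e-05).

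Receptors were mixed. Of 38 cytokine and growth factor receptors 12 rose and 11 fell (median 0.01), and of 39 G protein-coupled receptors 17 rose and 7 fell (median 0.22), or 12 fell without C. albicans library 1. Cd40, the co-stimulatory receptor, was at 18.5, 21.7 and 22.8 TPM and then at 53.5, 90.3 and 93.7 TPM (1.83 ± 0.19, adjusted p = 3.25e-04). Fas, the death receptor, rose from 3.15 to 4.38 TPM to 12.3, 18.5 and 17.8 TPM (1.89 ± 0.16). Tnfrsf1b, a TNF receptor, rose from 456 to 458 TPM to 647 to 732 TPM (0.61 ± 0.05). Of the adenosine receptors Adora2b rose from 6.29 to 7.35 TPM to 50.5, 34.8 and 37.9 TPM (2.42 ± 0.13) and Adora2a from 0.381 to 0.864 TPM to 4.62 to 5.42 TPM (1.93 ± 0.15). Of the receptors for prostaglandin E2, Ptger4 rose from 6.63 to 7.64 TPM to 21.3 to 24.8 TPM (1.53 ± 0.08), while Ptger1, picked after its values were seen, fell from 91.7 to 93.9 TPM to 65.0 to 75.4 TPM (-0.41 ± 0.06, adjusted p = 0.00143). Lpar6, a lysophosphatidic acid receptor, fell from 114, 108 and 103 TPM to 53.2, 62.7 and 57.0 TPM (-0.90 ± 0.07). Fpr1 and Fpr2, receptors for formylated peptides, were set by the first library. With C. albicans Fpr1 was at 1.13, 8.93 and 9.59 TPM against 0.598 to 1.23 TPM with PBS (1.66 ± 0.55, adjusted p = 0.0443, and 2.41 without library 1), a call that was lost when any other library was left out (adjusted p = 0.0867 to 0.135). Fpr2 was at 2.12, 10.4 and 7.99 TPM against 2.41 to 3.36 TPM (0.77 ± 0.42, adjusted p = 0.179, and 1.34, adjusted p = 3.6e-04, without it).

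Receptors that recognise microbes rose more often than they fell, in 12 of 28 genes against 3. Tlr2, the Toll-like receptor for lipoproteins and some yeast wall components, was at 162, 164 and 163 TPM with PBS and at 585, 621 and 619 TPM with C. albicans (1.89 ± 0.04, adjusted p = 4.57e-08). Clec4d, which pairs with Mincle, rose from 1000, 966 and 910 TPM to 1373, 1603 and 1588 TPM (0.66 ± 0.06), and Nod2, a sensor of bacterial wall fragments, from 2.21 to 2.75 TPM to 9.18 to 13.5 TPM (1.75 ± 0.14). Cd14, the co-receptor of Toll-like receptors, rose from 573 to 614 TPM to 862, 1155 and 1157 TPM (0.83 ± 0.10). The other lectin receptors of the fungal route moved little: Clec7a was at 121 to 137 TPM and then at 145 to 157 TPM (0.21 ± 0.06, adjusted p = 0.0197, but 0.0513 to 0.0563 without PBS library 2 or 3 or C. albicans library 2), and Clec4n was at 19.4 to 20.4 TPM and then at 20.2 to 23.1 TPM (0.12 ± 0.07, adjusted p = 0.183). Both were picked after their values were seen, as the best known receptors of this route. Mrc1, the mannose receptor, fell from 148, 143 and 133 TPM to 95.8, 85.6 and 85.3 TPM (-0.66 ± 0.06, adjusted p = 1.67e-04).

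Inside the cell, 18 of 39 signalling genes downstream of these receptors rose and 6 fell (median 0.14), and 9 or 10 rose without PBS library 2 or C. albicans library 2 or 3. Malt1, the protease of the Card9 complex, was at 18.2, 17.3 and 15.8 TPM with PBS and at 69.0, 68.0 and 67.9 TPM with C. albicans (1.94 ± 0.06, adjusted p = 3.56e-07). Bcl10, its partner, rose from 61.6 to 67.9 TPM to 93.3 to 96.9 TPM (0.53 ± 0.05), and Syk from 299 to 304 TPM to 361 to 380 TPM (0.30 ± 0.04). The adaptor Card9 fell instead, from 53.7, 54.1 and 58.5 TPM to 45.3, 40.1 and 40.7 TPM (-0.39 ± 0.06, adjusted p = 0.00239), and it too was picked after its values were seen. Members of 1 complex thus moved in opposite directions. Map3k8, the kinase that links NF-kB1 to ERK, rose by 1.28 ± 0.07, and Traf3 by 0.89 ± 0.07.

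All 11 genes for NF-kB subunits and IkB proteins rose, with a median difference of 1.5, and the count was 11 of 11 without the first C. albicans library and with median-ratio factors as well. Nfkbia, the classical IkB, was at 113, 108 and 113 TPM with PBS and at 762, 664 and 647 TPM with C. albicans (2.62 ± 0.06, adjusted p = 8.74e-08). Nfkb2 rose from 62.3, 63.6 and 63.0 TPM to 140, 155 and 154 TPM (1.23 ± 0.05), and Relb from 45.1 to 49.3 TPM to 101 to 103 TPM (1.09 ± 0.05). The first C. albicans library was above both others in 8 of the 11. Enzymes and adaptors that restrain NF-kB rose in 12 of 18 genes and fell in 1 (median 0.64). Tnfaip3, the ubiquitin-editing enzyme A20, was at 32.1, 29.9 and 31.2 TPM and then at 226, 172 and 172 TPM (2.56 ± 0.10, adjusted p = 1.18e-06). Tnip3, an A20-binding protein, rose from 16.5 to 17.6 TPM to 80.7 to 88.6 TPM (2.24 ± 0.06), Traf1 from 9.94 to 11.9 TPM to 52.8 to 66.1 TPM (2.40 ± 0.10) and Birc3, a ubiquitin ligase that blocks cell death, from 38.3 to 42.1 TPM to 131 to 150 TPM (1.78 ± 0.07).

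Immediate early genes, which need no new protein synthesis, rose in 23 of 31 cases and fell in 1. Maff, a small Maf factor, was at 5.94, 7.27 and 7.30 TPM with PBS and at 59, 48.1 and 43.7 TPM with C. albicans (2.70 ± 0.12, adjusted p = 1.94e-06). Fos rose from 36.5, 35.8 and 41.4 TPM to 122, 139 and 142 TPM (1.80 ± 0.08), Ier3 from 33.0 to 38.6 TPM to 135 to 145 TPM (1.97 ± 0.07) and Junb from 200 to 225 TPM to 499 to 561 TPM (1.33 ± 0.06). The single fall was Ier5l, a gene named for its likeness to an early response gene, which had the largest fall of all named genes, from 7.61, 9.32 and 11 TPM to 1.52, 2.27 and 2.21 TPM (-1.78 ± 0.15, adjusted p = 1.03e-04). Phosphatases and Sprouty-family proteins that end MAP kinase signalling rose in 9 of 15 genes and fell in none. Dusp4 was at 38.1, 37.8 and 41.2 TPM and then at 213, 181 and 186 TPM (2.28 ± 0.07, adjusted p = 2.70e-07), and Dusp1 at 140, 140 and 153 TPM and then at 476, 430 and 430 TPM (1.62 ± 0.06). Factors of mRNA decay and stability rose in 8 of 18 genes (5 without C. albicans library 2) and fell in 3 (1 without PBS library 2 or C. albicans library 3): Zc3h12c by 2.01 ± 0.07, Zc3h12a (regnase-1) by 1.44 ± 0.11 and Zfp36 (tristetraprolin) by 0.87 ± 0.04, the last from 172 to 180 TPM to 309 to 331 TPM.

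The JAK-STAT list was mixed, with 5 rises and 7 falls among 25 genes. Beside Socs3, the kinase gene Pim1 rose from 70.5 to 75.1 TPM to 151 to 169 TPM (1.11 ± 0.05), while Socs6 fell from 43.4 to 49.5 TPM to 24.0 to 30.0 TPM (-0.81 ± 0.09) and Jak3 from 25.5 to 28.8 TPM to 16.7 to 19.1 TPM (-0.59 ± 0.07). Of 21 inflammasome and pyroptosis genes 5 rose and 2 fell (5 fell without C. albicans library 1), near the 36.8% of all genes that passed. The sensor Nlrp3 was at 25.7, 25.6 and 25.5 TPM with PBS and at 162, 144 and 142 TPM with C. albicans (2.49 ± 0.06, adjusted p = 8.18e-08). Casp4, which encodes the caspase that binds bacterial lipopolysaccharide, rose from 68.6 to 73.8 TPM to 160 to 180 TPM (1.25 ± 0.05). P2rx4, an ATP-gated channel, fell from 363 to 385 TPM to 254 to 277 TPM (-0.49 ± 0.05).

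**Figure D4:**
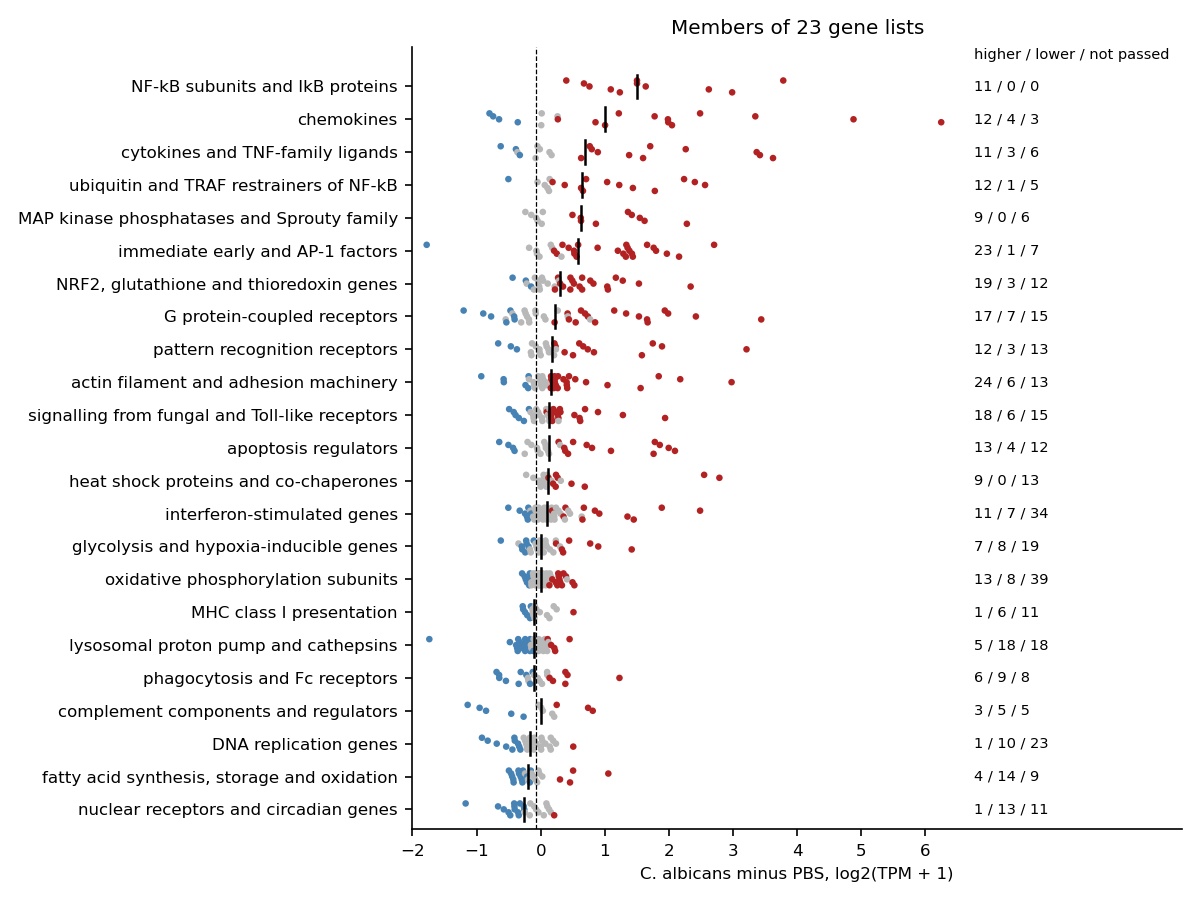
Log2 difference between C. albicans and PBS for each tested gene (points) of 23 gene lists, with the median of each list as a bar, that of all genes as a dashed line and, at the right, the numbers that rose, fell and did not pass. NF-kB and IkB genes lie wholly to the right of 0 (11 rises of 11), whereas nuclear receptor and circadian genes lie mostly to the left (1 rise and 13 falls of 25).

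Enzymes that make inflammatory metabolites were among the induced genes. Acod1, which makes itaconate, was at 60.5, 58.3 and 59.2 TPM with PBS and at 314, 451 and 444 TPM with C. albicans (2.72 ± 0.12, adjusted p = 2.44e-06). Nos2, the inducible nitric oxide synthase, was low, at 0.307, 0.854 and 0.614 TPM and then at 2.38, 6.96 and 6.94 TPM (1.92 ± 0.32, adjusted p = 0.00293). Gch1, which makes a cofactor of nitric oxide synthase, rose from 31.2 to 33.4 TPM to 50.7 to 59.2 TPM (0.78 ± 0.07). Over the list 7 of 15 genes rose and 2 fell. In the prostaglandin list, with 3 rises and 3 falls of 14, Ptges, the enzyme after Ptgs2 on the way to prostaglandin E2, was at 2.57, 3.24 and 3.09 TPM and then at 9.05, 24.8 and 24.5 TPM (2.25 ± 0.33, adjusted p = 0.00148). Pla2g7, an enzyme that degrades platelet-activating factor, fell from 571, 562 and 524 TPM to 351, 350 and 363 TPM (-0.64 ± 0.04).

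Of 8 genes of the phagocyte oxidase 2 rose and none fell. Rises numbered 4 without C. albicans library 1, 5 with median-ratio factors as well, and 1 without PBS library 1 or 3 or C. albicans library 2 or 3. The membrane subunit Cybb was at 500, 488 and 457 TPM with PBS and at 456, 640 and 642 TPM with C. albicans, so the groups overlapped through the first library (0.25 ± 0.12, adjusted p = 0.140), and without it the difference was 0.41 (adjusted p = 1.6e-04). Ncf4, a cytosolic subunit, rose from 320 to 348 TPM to 389 to 419 TPM (0.28 ± 0.05). Of 7 secreted antimicrobial and acute-phase genes 1 rose and 3 fell. Saa3, an acute-phase protein that macrophages make in response to many stimuli, fell from 2778, 2728 and 2762 TPM to 1213, 1262 and 1282 TPM, to 0.454 of its level (-1.14 ± 0.03, adjusted p = 2.38e-07). Lcn2, which captures bacterial iron carriers, fell from 27.2 to 30.1 TPM to 11.6 to 14.3 TPM (-1.05 ± 0.09), while S100a8 rose from 1.01 to 2.75 TPM to 5.72 to 7.73 TPM (1.37 ± 0.23). S100a8 is also a neutrophil marker, and its partner S100a9 was listed at 0 in every library. Lyz2, lysozyme, fell from 19416 to 19960 TPM to 15462 to 16682 TPM (-0.28 ± 0.04), with the limit that reads shared with its near copy Lyz1 may have been split.

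Genes of uptake changed in both directions. Among 23 phagocytosis and Fc receptor genes 6 rose and 9 fell, and among 20 receptors for apoptotic cells and scavenged lipids 7 rose and 10 fell. With median-ratio factors the counts were 6 and 7, and 8 and 9, and without C. albicans library 1 as well 9 and 8, and 8 and 10. Fcgr3, an activating Fc gamma receptor, was at 568, 559 and 564 TPM with PBS and at 365, 363 and 350 TPM with C. albicans (-0.65 ± 0.03, adjusted p = 6.00e-06). Fcgr2b, the inhibitory one, fell from 177, 174 and 173 TPM to 98.7, 117 and 118 TPM (-0.65 ± 0.07), and Fcgr4 from 290 to 314 TPM to 195 to 223 TPM (-0.54 ± 0.06). Mertk, which takes up dying cells, was at 61.5, 63.0 and 61.1 TPM and then at 46.0, 26.7 and 26.7 TPM (-0.93 ± 0.18, adjusted p = 0.00576), and it fell least in the first library. Olr1, a receptor for oxidised lipoprotein, rose from 0.841 to 1.08 TPM to 3.46, 8.86 and 8.87 TPM (1.97 ± 0.29). Complement factor B (Cfb) fell from 231, 230 and 233 TPM to 120, 117 and 120 TPM (-0.95 ± 0.04, adjusted p = 1.02e-06), in a complement list with 3 rises and 5 falls of 13.

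Antigen presentation genes changed in both directions. Of 13 class II genes 3 rose and 4 fell, and of 18 class I genes 1 rose and 6 fell, where 13.6% and 23.2% of all tested genes did. The class I counts were 4 and 3 with median-ratio factors, and 4 rose without C. albicans library 1. Cd83, a surface marker of activated antigen-presenting cells that stabilises class II molecules, was at 34.8, 35.1 and 37.7 TPM with PBS and at 224, 176 and 175 TPM with C. albicans (2.38 ± 0.09, adjusted p = 1.18e-06). The loading factor H2-DMa fell from 20.2 to 21.7 TPM to 13.9 to 14.5 TPM (-0.53 ± 0.06). Tap1, the peptide transporter of class I loading, fell from 126 to 136 TPM to 106 to 108 TPM (-0.27 ± 0.04).

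Regulators of macrophage identity moved in both directions, with 12 rises and 10 falls of 30 (7 rises without C. albicans library 3). Cebpa, which drives myeloid differentiation, fell from 194, 204 and 217 TPM to 115, 99.4 and 102 TPM (-0.96 ± 0.07, adjusted p = 3.04e-05), whereas its relative Cebpb, an inflammatory factor, rose from 220, 225 and 253 TPM to 400, 389 and 383 TPM (0.75 ± 0.06, adjusted p = 5.00e-05). Ets2 rose from 15.9 to 16.4 TPM to 66.1 to 69.1 TPM (2.01 ± 0.05). Nuclear receptors and clock genes fell in 13 of 25 cases and rose in 1 (median -0.26, and -0.19 with median-ratio factors). The clock-controlled factor Dbp was at 20.7, 20.3 and 21.4 TPM and then at 10.1, 8.06 and 8.01 TPM (-1.17 ± 0.09), and Rxra, the partner of many nuclear receptors, fell from 71.3 to 76.5 TPM to 43.4 to 50.4 TPM (-0.67 ± 0.07).

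Among genes at 5 TPM or more, leaving out small RNA and predicted genes, the largest fall after that of Ier5l was that of Engase, an enzyme that removes sugar chains from proteins in the cytosol. It was at 29.1, 28.6 and 31.4 TPM with PBS and at 10.0, 7.13 and 7.71 TPM with C. albicans (-1.74 ± 0.11, adjusted p = 1.96e-05). Arrdc3, an arrestin-like adaptor, fell from 44.8, 43.9 and 40.1 TPM to 13.2, 16.2 and 14.9 TPM (-1.48 ± 0.08). Thbd, thrombomodulin, which restrains blood clotting, fell from 22.8, 24.5 and 24.4 TPM to 8.21, 7.28 and 8.72 TPM (-1.46 ± 0.08). No C. albicans library overlapped the PBS range for these, which the choice of genes required. Cadm1, a cell adhesion molecule, fell from 46.5 to 47.6 TPM to 16.6 to 17.8 TPM (-1.40 ± 0.05), Timp1, an inhibitor of metalloproteinases, from 37.3 to 42.1 TPM to 15.8 to 18 TPM (-1.15 ± 0.07), and Hey1, a target of Notch, from 6.34 to 6.91 TPM to 1.60 to 2.94 TPM (-1.26 ± 0.15). Enc1, Tmem267, Mrgpre, BC064078 and the histone gene H2bc11 made up the rest of this group, with falls of 1.14 to 1.33.

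In TPM the largest losses were those of abundant macrophage products. Ctsd, the lysosomal protease cathepsin D, lost the most, from 19118 ± 219 to 14914 ± 552 TPM (SD, n = 3, log2 difference -0.36 ± 0.03 SE). Apoe, the lipid carrier, fell from 12127 to 13340 TPM to 9675 to 10030 TPM (-0.36 ± 0.04), and Ctsb, cathepsin B, from 11607 to 11894 TPM to 9781 to 10228 TPM (-0.24 ± 0.03). Cd5l, a secreted scavenger protein, fell from 3320 to 3327 TPM to 2158 to 2366 TPM (-0.57 ± 0.04). The gains went to Tmsb4x, which binds actin monomers, from 10078 ± 405 to 12881 ± 166 TPM (0.35 ± 0.04), to Sqstm1, the autophagy receptor p62, from 1520 ± 34.0 to 3166 ± 457 TPM (1.05 ± 0.09), and to Hmox1, haem oxygenase. Hmox1 was at 669, 696 and 715 TPM with PBS and at 1018, 1908 and 1962 TPM with C. albicans (1.17 ± 0.22, adjusted p = 0.00453), so the first library showed the smallest rise. Lilrb4a and Lilrb4b, inhibitory receptors, rose by 0.77 ± 0.05 and 0.84 ± 0.07, but they are near copies of each other and their reads cannot be told apart with confidence.

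Lysosomal genes fell in 18 of 41 cases and rose in 5, or 14 and 10 with median-ratio factors. The list counts Engase, described above as acting in the cytosol, which was its only fall of at least 2-fold. Ctsh fell from 935 to 969 TPM to 726 to 739 TPM (-0.37 ± 0.03) and Hexa, a lysosomal glycosidase, from 1410 to 1477 TPM to 1160 to 1180 TPM (-0.29 ± 0.03). Autophagy genes fell in 9 of 31 and rose in 4, but the counts were 5 and 5 with median-ratio factors, so the balance there depends on the scaling, and there were 16 falls without C. albicans library 1 and 5 without library 2 or 3. Fatty acid genes fell in 14 of 27 and rose in 4 (9 and 4 with median-ratio factors), and 8 or 9 fell when a library other than the first C. albicans one was left out. The lipid droplet coat gene Plin3 fell from 127 to 130 TPM to 94.0 to 97.4 TPM (-0.43 ± 0.04) and Pnpla2, a triglyceride lipase, from 81.5 to 91.4 TPM to 58.6 to 65.3 TPM (-0.46 ± 0.06). Lpl, which encodes lipoprotein lipase, went against the falls of efflux genes (4 rises and 7 falls of 16), from 262, 252 and 240 TPM to 549, 523 and 515 TPM (1.07 ± 0.04, adjusted p = 1.64e-06). Arl4c fell from 284 to 293 TPM to 153 to 168 TPM (-0.86 ± 0.05). Ribosomal protein genes rose in 32 of 79 cases and fell in 9, or 45 and 0 with median-ratio factors, and 19 to 21 rose without PBS library 1 or 2 or C. albicans library 2 or 3. Rpl39 had the largest gain in TPM among them, from 1110, 1030 and 996 to 1446, 1751 and 1715 (0.64 ± 0.07).

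More survival and antioxidant genes rose than fell. Of 29 apoptosis regulators 13 rose and 4 fell. Cflar, an inhibitor of death receptor signalling, was at 38.3, 38.7 and 36.3 TPM with PBS and at 150, 134 and 134 TPM with C. albicans (1.86 ± 0.06, adjusted p = 3.44e-07). Bcl2a1b, an anti-apoptotic Bcl-2 relative with near copies, rose from 146 to 153 TPM to 292 to 333 TPM (1.10 ± 0.06). Mdm2 rose from 183 to 194 TPM to 321 to 342 TPM (0.80 ± 0.04) and Cdkn1a, the cell cycle inhibitor p21, from 249 to 256 TPM to 357 to 365 TPM (0.51 ± 0.03). Of 34 NRF2, glutathione and thioredoxin genes 19 rose and 3 fell (median 0.29). Slc7a11, the cystine importer, was at 1.93, 1.90 and 1.78 TPM and then at 8.82, 16.9 and 16.3 TPM (2.34 ± 0.21), and Sod2, mitochondrial superoxide dismutase, at 68.2, 71.0 and 72.5 TPM and then at 148, 244 and 242 TPM (1.53 ± 0.17). Nfe2l2, which encodes NRF2 itself, rose from 200 to 203 TPM to 301 to 332 TPM (0.65 ± 0.04).

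The cytoskeleton list leaned upward, with 24 rises and 6 falls of 43 genes (median 0.17). Marcksl1, an actin-linked membrane protein, was at 93.8, 98.6 and 99.9 TPM with PBS and at 306, 526 and 543 TPM with C. albicans (2.18 ± 0.19, adjusted p = 1.14e-04). Rnd3, a GTPase that opposes RhoA, rose from 4.37 to 5.79 TPM to 17.9 to 21.1 TPM (1.84 ± 0.11), and Actg1 from 1964 to 1999 TPM to 2539 to 2682 TPM (0.41 ± 0.03). Integrin chains went both ways: Itga5, the fibronectin receptor chain, rose from 158 to 167 TPM to 260 to 274 TPM (0.73 ± 0.04), and Itgb5 fell from 270 to 288 TPM to 162 to 213 TPM (-0.65 ± 0.10). Plaur, the urokinase receptor, rose from 16.3, 17.4 and 20 TPM to 56.0, 58.9 and 65.8 TPM (1.70 ± 0.09), and Sdc4, a surface proteoglycan, from 151 to 153 TPM to 318 to 326 TPM (1.08 ± 0.04).

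Of the genes closest to Piezo1 in function, calcium genes changed in both directions and few channel genes passed the test. Of 21 calcineurin and NFAT genes 5 rose and 7 fell. Rcan1, a calcineurin inhibitor that NFAT induces, rose from 87.3, 89.6 and 93.3 TPM to 129, 138 and 140 TPM (0.58 ± 0.05, adjusted p = 8.71e-05). Orai2, a store-operated calcium channel, rose from 59.2 to 66.0 TPM to 106 to 107 TPM (0.75 ± 0.05), while Orai1 fell from 47.8 to 50.8 TPM to 36.4 to 40.0 TPM (-0.35 ± 0.06) and Nfatc1 from 15.1 to 15.6 TPM to 9.21 to 11.1 TPM (-0.56 ± 0.08). The 2 Orai channels thus moved apart. In the list of 17 mechanosensitive and swelling-gated channels 1 rose (3 without C. albicans library 1) and 3 fell (1 without PBS library 2 or 3). Over all tested genes 13.6% rose and 23.2% fell. The one that rose with all 6 libraries was Kcnn4, from 113 to 119 TPM to 137 to 167 TPM (0.43 ± 0.08). It is a calcium-activated potassium channel, so no listed channel gated by stretch or swelling rose with all 6.

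Some gene groups depended on the first C. albicans library. Over all genes it lay 0.05 above the mean of replicates 2 and 3 in the median, but 0.28 below it over the 52 interferon-stimulated genes, of which 41 were below both replicates and 7 above both. With all 6 libraries 11 of these genes rose and 7 fell, and without it 28 rose and 6 fell, while 7 rose without PBS library 3. Cxcl10, an interferon-induced chemokine, was at 20.9, 19.8 and 19.4 TPM with PBS and at 83.5, 136 and 139 TPM with C. albicans (2.49 ± 0.17). Ifi205, an interferon-induced DNA sensor family member, was at 117 to 136 TPM and then at 352, 541 and 543 TPM (1.89 ± 0.15). Both rose with or without that library. Ifit1, an antiviral RNA-binding protein picked after its values were seen, was at 61.6, 59.2 and 56.8 TPM and then at 56.7, 120 and 117 TPM (0.64 ± 0.25, adjusted p = 0.0750, against 0.99, adjusted p = 3.82e-06, without the library). Irf7, a main interferon regulator, fell in all 3, from 1000, 1028 and 1042 TPM to 762, 690 and 712 TPM (-0.51 ± 0.04).

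The same library was lower over the NRF2 list, by 0.30 in the median and below both replicates in 28 of 34 genes, and the list had 23 rises and 3 falls without it. It was lower over glycolysis and hypoxia genes by 0.14, where 7 rises and 8 falls became 13 and 9. Heat shock genes, with 9 rises and 0 falls of 22, had 12 and 1 without it, and 5 rose without PBS library 3 or C. albicans library 2. Hspa1a, the inducible Hsp70, was at 5.89, 6.31 and 8.14 TPM with PBS and at 14.3, 97.0 and 99.9 TPM with C. albicans (2.79 ± 0.64, adjusted p = 0.0109, or 0.0675 with a robust prior variance, and 3.69 without library 1). Its near copy Hspa1b was at 4.60 to 6.79 TPM and then at 9.75, 67.9 and 74.6 TPM (2.55 ± 0.65, adjusted p = 0.0169, and 3.46 without it), and reads of the pair may have been split between them. Without any 1 PBS library or C. albicans library 2 the adjusted p of Hspa1b was 0.0528 to 0.0559. Mitosis genes went the other way, 0.23 above replicates 2 and 3 in the median and above both in 20 of 28 genes, and 4 rises and 4 falls became 2 and 9 without the library. What sets this library apart was not tested, and the plot of its differences from PBS against those of replicates 2 and 3 shows these lists beside the principal components.

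**Figure D5:**
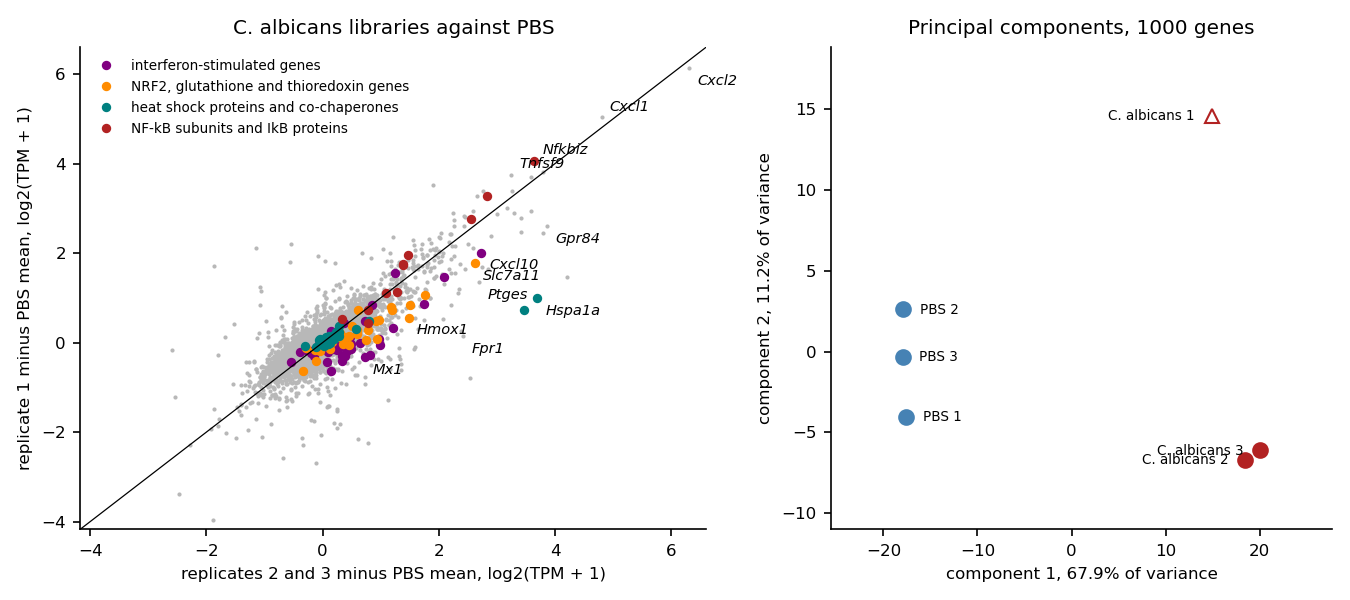
Left, for each tested gene the difference of C. albicans replicates 2 and 3 from the PBS mean (horizontal axis, log2(TPM + 1)) against that of replicate 1 (vertical axis), with 4 lists in colour and equality as a line. Of the 52 interferon-stimulated genes 41 are below both other replicates and so under the line. Right, the first 2 principal components of the 1000 most variable genes, with 67.9% and 11.2% of the variance: PBS libraries sit at -17.9 to -17.6 on the first component and C. albicans libraries at 14.9 to 20.1, with replicate 1 at 14.6 on the second.

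Of 34 DNA replication genes 1 rose and 10 fell, where 13.6% and 23.2% of all tested genes did: the helicase subunit Mcm7 fell from 8.83 to 11.2 TPM to 5.49 to 6.57 TPM (-0.69 ± 0.11) and Rrm2, a ribonucleotide reductase subunit, from 1.87 to 2.54 TPM to 0.556 to 0.904 TPM (-0.92 ± 0.16). The exception was Pcna, the replication clamp, which rose from 396 to 427 TPM to 573 to 608 TPM (0.51 ± 0.04). Among non-coding RNAs, Mir155hg, the host of the inflammatory microRNA miR-155, rose from 1.04, 0.861 and 0 TPM to 7.0, 5.36 and 5.17 TPM (2.12 ± 0.26, adjusted p = 7.01e-04), and Neat1, the scaffold of nuclear paraspeckles, fell from 123 to 125 TPM to 90.9 to 92.6 TPM (-0.43 ± 0.04).

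Traces of lymphoid RNA moved with the treatment. The 6 B cell markers in the table had 63, 34 and 52 reads with PBS and 9, 6 and 7 with C. albicans, a summed 2.86 to 4.2 TPM against 0.258 to 0.876 TPM. Cd79a, a chain of the B cell receptor and the only one tested, fell by 0.97 (adjusted p = 0.00603), and Ms4a1, which encodes CD20, had 17, 8 and 10 reads and then none. The T cell kinase gene Lck had 15, 15 and 27 reads and then 4, 7 and 4. The 9 T and NK cell markers summed to 17.5 to 19.5 TPM with PBS and to 13 to 16.5 TPM with C. albicans, most of it Cd4 (-0.21, adjusted p = 0.101, and -0.29, adjusted p = 0.0170, without C. albicans library 1), a gene macrophages can express, with Cd3e listed at 0. Other genes known from T and NK cells, outside that list and picked after their values were seen, were among the falls of at least 2-fold. Xcl1, a chemokine of NK and T cells, was at 5.09, 4.98 and 3.94 TPM with PBS and at 0.722, 0.390 and 0.952 TPM with C. albicans (-1.76 ± 0.16, adjusted p = 1.58e-04). Il2rb, a chain of the IL-2 receptor, fell from 2.05 to 2.22 TPM to 0.0457 to 0.300 TPM (-1.47 ± 0.16), and Ptprcap, which binds CD45, from 1.77 to 3.59 TPM to 0.119 to 1.17 TPM (-1.28 ± 0.28). Klrd1, the NK receptor CD94, was at 1.06 to 1.25 TPM and then listed at 0 in all 3 libraries (adjusted p = 0.00146). The groups did not overlap for any of these 4, but the genes were picked with their falls known. Xcl1, Il2rb, Klrd1 and Cd79a were under 1 TPM in every C. albicans library, so they passed the level filter only through the PBS group. For them the filter itself required higher PBS values without overlap, so neither this nor the adjusted p is separate evidence of a fall. Of all tested genes 33% were also lower without overlap. The megakaryocyte markers, mostly Pf4, summed to 75.6 to 81.4 and 79.6 to 119 TPM, and the endothelial markers to 42.8 to 45.6 and 48.1 to 57.3 TPM. The part of other cells in the results above was not tested.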

How the data were processed

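RNA of 6 wild-type libraries, 3 with PBS and 3 with C. albicans, was compared. Per the submitters' processing notes the tools were CASAVA 1.8, cutadapt 2.6, STAR 2.7.5a and DESeq2 1.34.0 with build mm10. The program that counted reads, its strand setting and its gene models were not given in the sources used here. Overlapping and antisense genes therefore cannot be told apart with confidence. The deposited values are TPM, each library summing to 1000000, and the authors also deposited a mean signal per gene, used here only to recover reads. Their fold changes and p-values were not used. Whole reads came back for 100% of 171648 values above 0 (within 0.01 read), and 28 rows without a symbol held 0.00132% of them.

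Genes at 1 TPM or more in 3 of the 6 libraries were tested by limma 3.58.1 (R 4.3.3) on log2(TPM + 1), with a mean-variance trend, 4 residual degrees of freedom and Benjamini-Hochberg adjustment at 0.05. On simulated data with 50 genes per fold size this recovered 30, 41, 49 and 49 of those changed 1.25, 1.5, 2 and 4-fold. Of the 179 genes called there, 10 were false calls. All 6 simulated libraries took their spread from the PBS libraries. This leaves out how far C. albicans library 1 stood apart, so the recovery may be overstated for these data. Exact tests of 3 against 3 libraries cannot go below 0.10 and were not used. Tables and figures were made with Python 3.11.15, pandas 2.3.3, numpy 2.4.6, scipy 1.17.1 and matplotlib 3.10.9. Promoters are from RefSeq (GRCm38.p6) and gene positions from RefSeq, while exon numbers and GC content of transcripts are from GENCODE M21.

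Genes named are Piezo1, the 15 largest rises and falls of separated groups at 5 TPM or more (leaving out 7 small RNA or predicted genes), the 10 largest gains and losses in TPM, the 5 smallest p in each list, and genes in which C. albicans library 1 lay farthest from its replicates, from which the text describes a part. Itgam, Adgre1, Clec7a, Clec4n, Card9, Ifit1, Ptger1, Xcl1, Il2rb, Ptprcap and Klrd1 were added after their values were seen, as were genes under the filter. Genes and lists were chosen with earlier results of these data known. Lists of replication-dependent histones and mitochondrially encoded mRNAs found no symbol in the table. Amd1 and Oaz1, used by every cell, are listed at 0, so a 0 elsewhere need not mean absence. Alternatives were the pseudocount, the level filter, scaling by median-ratio or upper-quartile factors, the variance prior, all 12 libraries, a replicate block, each library left out and, added after the data were seen, voom on the recovered reads and leaving out C. albicans library 1 with median-ratio factors together. A result that rests on withheld items is not reported here.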

Additional observations from a re-analysis of the deposited data

How the results depend on the processing

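With 3 libraries a group, differences under about 1.5-fold were recovered only in part in the simulation, which had the spread of the PBS libraries. Genes with few reads are limited by counting. The number of genes that rose lay between 1064 and 1744 when each library was left out in turn, was 2413 without C. albicans library 1 together with median-ratio factors, and 1672 by voom on the recovered reads. The number that fell lay between 1599 and 3272 when each library was left out and was 1707 with median-ratio factors. Rises of at least 2-fold numbered 215 to 258 with a library left out and 145 with a pseudocount of 5. Falls of at least 2-fold numbered 46 to 73 with a library left out, 134 with a pseudocount of 0.1, 13 with a pseudocount of 5, 28 when 5 TPM in 3 libraries was required and 137 by voom. With a replicate block 1390 genes rose and 2220 fell, 230 and 51 of them at least 2-fold. The labels do not say whether the replicate numbers pair the libraries. The deviations of same-numbered libraries from their group means correlated at -0.061, -0.045 and -0.0045 across genes. These values cannot decide it, since deviations cancel out within a group and C. albicans library 1 stood apart. The small fall of Fth1 (-0.09) reversed to 0.00496 (adjusted p = 0.882) without C. albicans library 1 and with median-ratio factors. Of the 319 named genes 275 kept their direction and side of the threshold under every alternative run and 44 did not under 1 or more. Without C. albicans library 1 no named gene lost its call and 13 gained one. Genes were named for a small p, a large change or a distance of that library from its replicates. These counts therefore follow in part from the choice of genes. The cause of these changes was not tested.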
